A study of Mus musculus with 6 samples.

Results

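Matrix glycoproteins, laminins and proteoglycans are described here as a list of 44 genes, taken from the deposited table of 22183 genes by an exact match of the gene symbol. Each of the 44 symbols was found, and 0 of them were listed more than once. RNA was sequenced from peritoneal endothelial cells (ECs) of 3 mice given PD fluid, a high-glucose dialysis solution, and of 3 sham mice given saline, each intraperitoneally for 6 weeks. All 6 mice were labelled WT, the study's methods give male C57BL/6J mice, and each mouse gave a library of its own. The labels describe magnetic sorting of CD31+ cells from peritoneal tissue, whereas the study's methods describe collagenase digestion of mesentery and flow sorting of CD31+ CD45- cells, so the sort behind these libraries could not be settled. The groups are called saline mice and PD mice below.

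The extracellular matrix is built by 4 kinds of proteins in this list. Laminins are trimers of an α, a β and a γ chain that form the sheet of the basement membrane beneath endothelium and mesothelium, and nidogens tie that sheet to collagen IV. The proteoglycans include the heparan sulphate proteoglycans of the basement membrane and the small leucine-rich proteoglycans (SLRPs), which bind collagen fibrils in the stroma and control their thickness. Elastic fibres have an elastin core on a scaffold of fibrillin microfibrils, and they are assembled by fibulins and cross-linked by lysyl oxidases. Fibronectin and the matricellular proteins connect cells to the matrix and bind growth factors, and several of them accumulate in fibrosis.

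The libraries held 21973426 to 26374292 counts on genes. The CD31 transcript, Pecam1, had a mean of 145 FPKM (fragments scaled to transcript length and library size) in saline mice and 158 FPKM in PD mice. The CD45 transcript, Ptprc, had a mean of 624 FPKM and 392 FPKM, and it was above Pecam1 in all 6 libraries, which went against the label of a purely endothelial sample. Levels in CPM below are counts scaled to library size by TMM. Markers of other cells moved between the groups. They are counted as higher or lower by the edgeR test given below, by which 31.1% of all tested genes were higher and 27.8% lower. All 10 fibroblast markers were higher in PD mice, with summed levels of 38.5 to 53.3 CPM in saline mice and 271 to 328 CPM in PD mice. All 10 mesothelial markers were higher (32.5 to 38.3 CPM against 228 to 260 CPM), as were all 10 macrophage markers (2619 to 2757 CPM against 10687 to 11518 CPM) and all 6 lymphatic endothelial markers (156 to 171 CPM against 626 to 715 CPM). Of the pericyte and smooth muscle markers, 9 of 10 were higher (293 to 314 CPM against 468 to 516 CPM), and 11 of 12 endothelial markers were higher (1241 to 1257 CPM against 2031 to 2154 CPM). All 10 pancreatic acinar markers were higher (1.37 to 3.00 CPM against 8487 to 9264 CPM), whereas all 6 B cell markers (5827 to 6104 CPM against 2767 to 2803 CPM), 4 of 5 pan-leukocyte markers and 3 of 6 T cell markers were lower. Of the platelet markers 1 of 4 tested was higher, which is near the share of all genes, and of the adipocyte markers 0 of 5 tested passed. Lep, an adipocyte marker, was at 0 in every PD mouse, and no other marker was at 0 in every mouse of a group. In RNA from such a mixed population, more or fewer cells of a type and more or less RNA per cell cannot be told apart, and the part of these other cells in the results below was not tested.

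Matrix transcripts were higher in PD mice across all 4 kinds. Of the 44 genes, 42 passed the filter on low counts, and 39 of these were higher by the quasi-likelihood test of edgeR at a threshold of 0.05 on the adjusted p, against 31.1% of all 14005 genes tested. Lamb3 was the 1 gene that was lower, against 27.8% of all genes, and Aspn and Loxl2 passed in neither direction. The median log2 fold change of the 42 genes was 1.497, with a range from -0.81 to 3.91, whereas the median of all tested genes was 0.02. A change of at least 2-fold was found for 34 of them, against 15.4% of all tested genes. All 3 PD mice lay above all 3 saline mice for 40 of the 42 genes, against 34.0% of all genes, and below them for 1, against 31.6%. The reads on the 44 genes made up 0.106% to 0.112% of all counts in saline mice and 0.301% to 0.317% in PD mice.

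**Figure D1:**
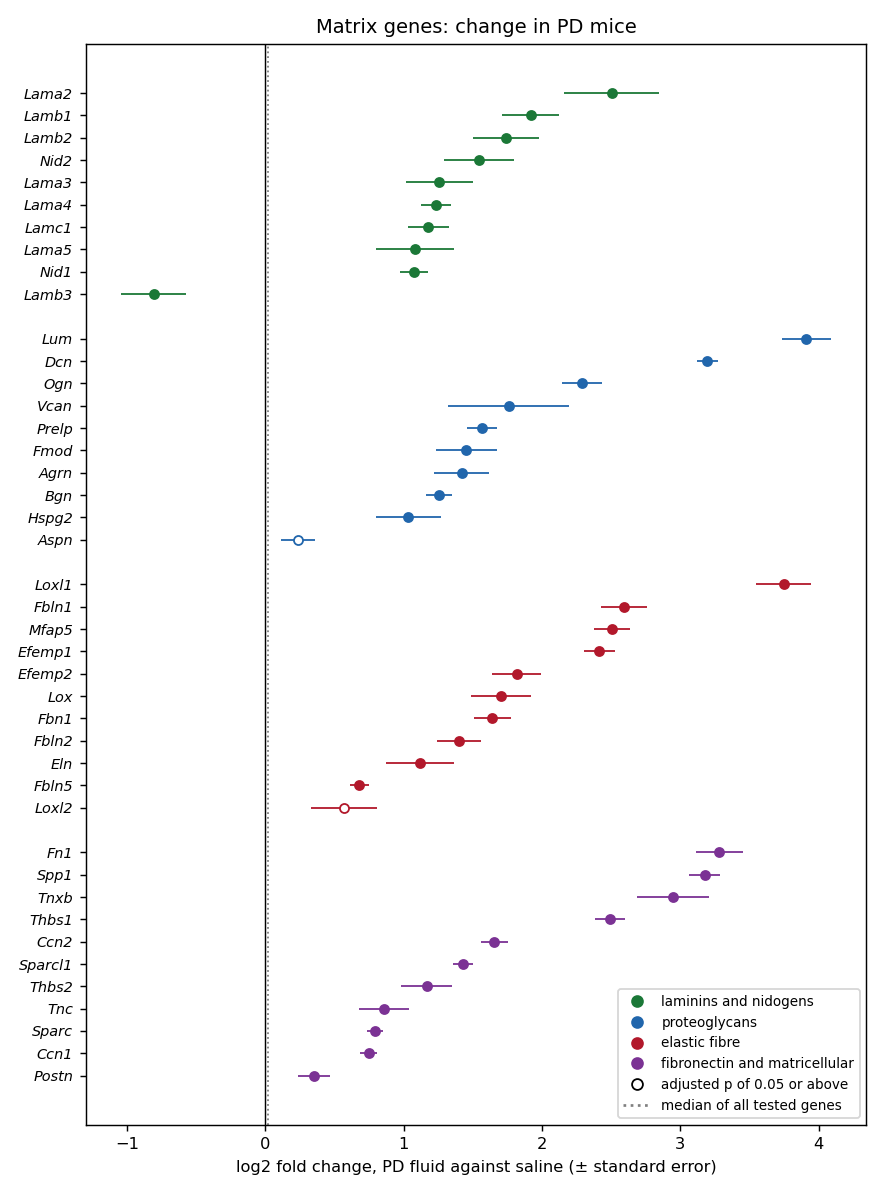
Log2 fold change of each tested matrix gene in PD mice against saline mice, with its standard error, by role group, after TMM scaling, where open points have an adjusted p of 0.05 or above and the dotted line is the median of all tested genes at 0.02. Lum is highest at 3.91 and Lamb3 is the 1 gene below 0 under this scaling, whereas Aspn, Fbln5, Loxl2, Sparc, Tnc, Postn and Ccn1 also turn below 0 when libraries are scaled to endothelial markers and 35 genes turn below 0 when scaled to fibroblast markers.

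These counts depended on which genes set the scale of the libraries. With the libraries scaled to 12 endothelial markers, the median of all tested genes moved to -0.97, and 23 of the 42 genes were higher and 5 lower, against 8.15% and 72.5% of all genes. The median of the matrix genes was then 0.51. The 12 markers themselves changed unequally under TMM, from a log2 fold change of 0.13 for Pecam1, which did not pass, to 1.65 for Tie1. With scaling to 10 fibroblast markers, the median of all genes moved to -2.85, and 4 matrix genes (Lum, Loxl1, Fn1 and Dcn) were higher and 33 lower, against 1.06% and 95.8% of all genes. The median of the matrix genes was then -1.36, which was again above that of all genes. Of the fibroblast markers, Mfap4 (1, 6 and 3 counts) and Clec3b (11, 3 and 5 counts) rested on few reads in the saline mice. The collagen genes Col1a1, Col1a2 and Col3a1, and Dpt and Mfap4, are fibroblast markers here and also matrix genes. Their log2 fold changes under TMM ran from 2.70 for Col3a1 to 5.22 for Mfap4. The largest among the other fibroblast markers was 2.42 for Clec3b. The listed genes were thus scaled in part to other matrix genes, so these lower calls do not show a fall relative to fibroblasts. Scaling without the matrix genes was not tested. Changes given below use TMM scaling unless stated otherwise.

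**Figure D2:**
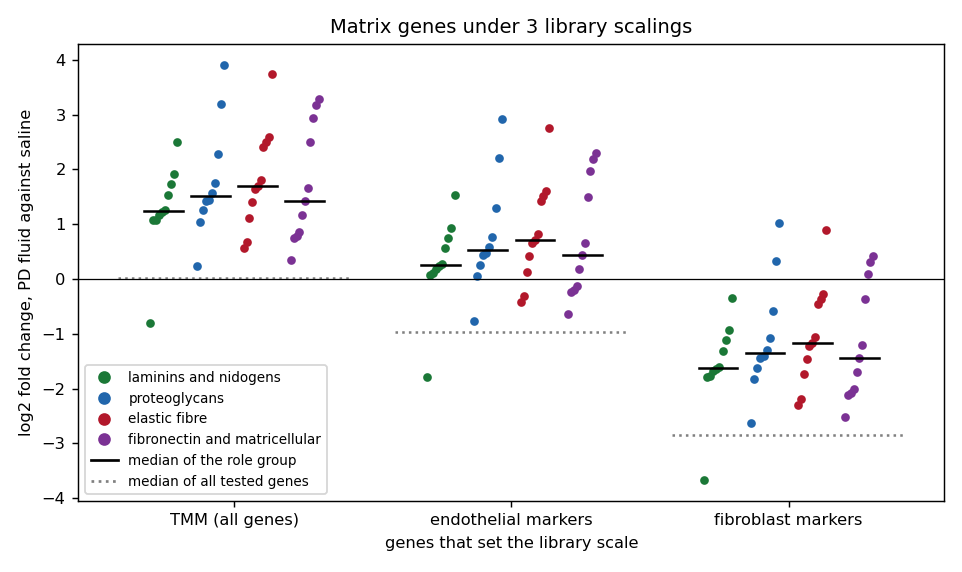
Log2 fold changes of the 42 tested matrix genes in PD mice against saline mice (vertical axis) with the libraries scaled by TMM over all genes, to 12 endothelial markers or to 10 fibroblast markers, where points are genes, black lines the median of each role group and dotted lines the median of all tested genes. The dotted line moves from 0.02 to -0.97 and -2.85, and the median of the 42 genes moves from 1.497 to 0.51 and -1.36, so the sign of most genes changes under the last scaling.

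The order of the genes by level changed as well. Levels of different genes are compared by FPKM, which accounts for transcript length. In saline mice, Ccn1 had the highest level at 116 ± 2.14 FPKM (SD, n = 3 mice), followed by Sparc at 84.4 ± 4.301, Fbln5 at 66.8 ± 3.25, Sparcl1 at 38.0 ± 2.42 and Dcn at 34.1 ± 1.03 FPKM. None of these neighbours in the order overlapped, whereas Fbln2, Prelp and Aspn, which came next at 13.0, 9.65 and 9.23 FPKM, did. In PD mice, Dcn had the highest level at 313 ± 16.4 FPKM, ahead of Ccn1 at 195 ± 5.85, Sparc at 151 ± 6.48, Fbln5 at 107 ± 4.18, Sparcl1 at 103 ± 1.55 and Spp1 at 60.9 ± 4.11 FPKM, again with no overlap between neighbours. Efemp1, Fbln2, Prelp and Lum followed at 32.6, 31.8, 28.8 and 28.4 FPKM and overlapped from each to the next.

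The 44 genes together reached 437 to 442 FPKM in saline mice and 1245 to 1251 FPKM in PD mice. Proteoglycans made up 14.4% to 14.9% of this sum in saline mice and 31.3% to 33.7% in PD mice. Dcn by itself went from 7.58% to 8.06% of the sum to 23.8% to 26.3%. Fibronectin and the matricellular genes took 58.2% to 60.4% in saline mice and 45.7% to 46.8% in PD mice, of which Ccn1 held 25.7% to 26.8% and 15.1% to 15.9%. Elastic fibre genes held 21.4% to 23.0% and 16.96% to 17.6%. Only the share of laminins and nidogens overlapped between the groups, at 2.94% to 4.38% and 3.04% to 4.35%. These shares are ratios within a library, so they show unequal change among the genes and do not depend on the scale of the libraries.

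**Figure D3:**
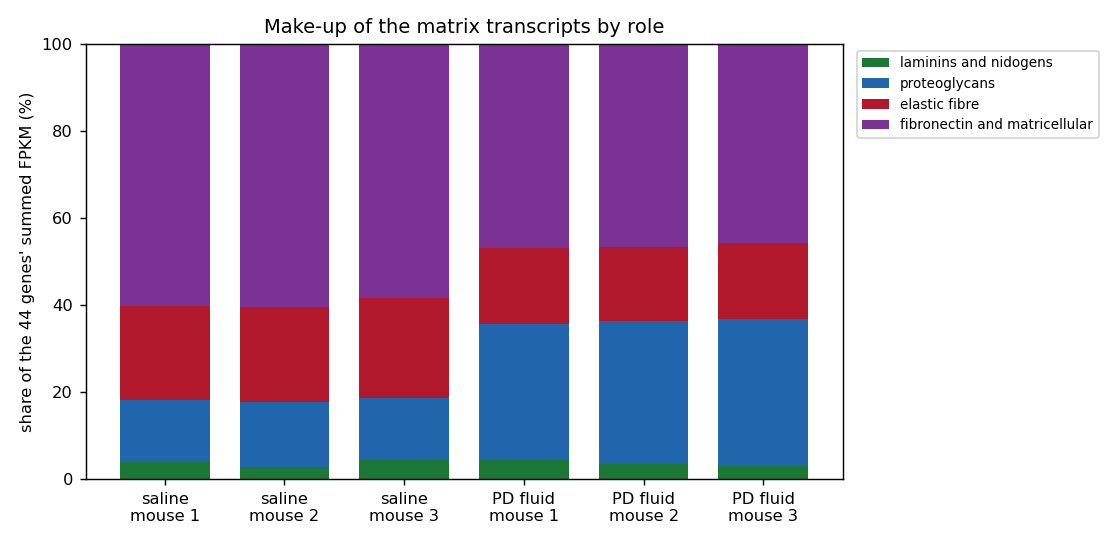
Share of the summed FPKM of the 44 matrix genes (percent, vertical axis) taken by each role group in each of the 3 saline and 3 PD mice. Proteoglycans rise from 14.4% to 14.9% in saline mice to 31.3% to 33.7% in PD mice, and the share of laminins and nidogens overlaps. Most of the proteoglycan rise is that of Dcn, which by itself holds 7.58% to 8.06% in saline mice and 23.8% to 26.3% in PD mice.

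Laminin and nidogen transcripts were higher in PD mice, with 9 of the 10 tested genes higher, against 31.1% of all genes, 1 lower, against 27.8%, and a median log2 fold change of 1.24. Scaled to endothelial markers, 4 stayed higher (Lama2, Lamb1, Lamb2 and Nid2), against 8.15% of all genes, and Lamb3 stayed lower, against 72.5%. Scaled to fibroblast markers, 0 were higher and 9 lower, against 1.06% and 95.8% of all genes, so the lower count was near that of all genes. The same shares of all genes apply to the counts of the other role groups below. Lamb2, the β2 chain of vascular and muscle basement membranes (ENSMUSG00000052911, chr9:108479736-108490530), had the highest level of the group over both conditions. It stood at 28.8, 14.9 and 32.2 CPM in the saline mice and at 106, 79.8 and 68.5 CPM in the PD mice. Saline mouse 2 was well below the other two, but every PD mouse exceeded every saline mouse. The log2 fold change was 1.74 ± 0.24 (SE, n = 3 mice per group; adjusted p = 0.000111, edgeR).

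Lama4, the α4 chain of endothelial laminin 411 (ENSMUSG00000019846, chr10:38965515-39110188), was at 14.4, 14.4 and 14.0 CPM in saline mice and 35.5, 36.2 and 28.9 CPM in PD mice. The saline mice were nearly equal and the PD mice all higher, a log2 fold change of 1.23 ± 0.11 (adjusted p = 4.37e-06, edgeR). Nid1, or nidogen-1, which bridges laminin and collagen IV, was at 23.7, 24.1 and 26.1 CPM and at 58.6, 48.9 and 47.8 CPM, with no overlap and a log2 fold change of 1.07 ± 0.10 (adjusted p = 5.93e-06, edgeR). For both genes the difference was 0.24 or less and no longer passed when the libraries were scaled to endothelial markers.

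The largest change of the group was that of Lama2, the α2 chain known from muscle basement membrane and from fibroblasts. It was among the lowest genes, at 0.430, 0.461 and 0.497 CPM in saline mice and 1.88, 3.31 and 2.76 CPM in PD mice. The groups were far apart for its level, and the log2 fold change was 2.50 ± 0.34 (adjusted p = 0.000116, edgeR). Lamb1, the widely expressed β1 chain, was at 5.47, 5.07 and 9.61 CPM and at 27.5, 23.99 and 24.7 CPM. Saline mouse 3 was the highest saline mouse and still below each PD mouse, and the log2 fold change was 1.92 ± 0.21 (adjusted p = 1.86e-05, edgeR).

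Lamb3 encodes the β3 chain of the epithelial laminin 332 (ENSMUSG00000026639, chr1:193207699-193343878). It was at 3.09, 2.54 and 2.90 CPM in saline mice and 1.77, 1.51 and 1.59 CPM in PD mice. All PD mice were below all saline mice, at 1.75-fold lower, and the log2 fold change was -0.81 ± 0.23 (adjusted p = 0.0123, edgeR). Lama3, the α3 chain found in epithelial laminins, was higher in PD mice, at 1.33 to 1.71 CPM in saline mice and 2.98 to 4.08 CPM in PD mice, with a log2 fold change of 1.26 ± 0.24 (adjusted p = 0.00115, edgeR). Lama1, the α1 chain of embryonic and epithelial laminin 111, was not tested, since its only reads were 5 counts in PD mouse 1.

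The remaining genes of the group were Lama5, Lamc1 and Nid2, which were higher in PD mice with log2 fold changes of 1.08, 1.18 and 1.54. In saline mouse 2 they were lowest among the saline mice, for example 3.00 CPM for Nid2 against 7.03 and 5.59 CPM, and the summed level of laminins and nidogens ran from 79.5 to 113 CPM over the saline mice. In PD mice it ran from 230 to 297 CPM. Over all 42 genes, saline mouse 2 was the lowest saline mouse for 18, or 42.9%, against 38.0% of all tested genes. Among the PD mice, PD mouse 3 was the lowest for 19 of the 42, or 45.2%, against 31.9% of all tested genes, and PD mouse 1 for 12, or 28.6%, against 42.5%. Nid2 shares 437 exon bases with the antisense gene Rtraf, which had 5910 counts over the 6 libraries against 1506 for Nid2, and as the strand used in counting is not given, reads of the pair cannot be told apart there.

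Proteoglycan transcripts were higher for 9 of 10 genes, with a median log2 fold change of 1.51, and the 2 largest changes were those of the stromal SLRPs Lum and Dcn. Scaled to endothelial markers, 5 were higher (Dcn, Bgn, Lum, Ogn and Prelp) and Aspn was lower, and scaled to fibroblast markers 2 were higher (Dcn and Lum) and 8 lower. Dcn encodes decorin, which coats collagen fibrils and binds TGF-β (ENSMUSG00000019929, chr10:97479609-97518143). It was at 59.1, 62.8 and 58.5 CPM in the saline mice and at 506, 552 and 593 CPM in the PD mice. Each group was tight and the gap between them wide, at 9.15-fold (log2 fold change 3.19 ± 0.08, adjusted p = 7.96e-11, edgeR).

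Lum encodes lumican, an SLRP of collagenous stroma, and lies 46984 bases downstream of Dcn on the same strand (chr10:97565128-97572703). Its level was 3.83, 6.36 and 3.73 CPM in saline mice and 61.3, 72.8 and 74.0 CPM in PD mice. Saline mouse 2 had the highest saline level here, and the PD mice were all far above it, with a fold of 15.1 and a log2 fold change of 3.91 ± 0.18 (adjusted p = 1.92e-08, edgeR), the largest of the 42. Kera, the SLRP gene that follows Lum, had 0 counts in all 6 libraries.

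Prelp, an SLRP that anchors basement membranes to connective tissue, was at 40.0, 28.8 and 36.2 CPM and at 104, 108 and 100 CPM. The groups did not overlap, with a log2 fold change of 1.57 ± 0.11 (adjusted p = 5.55e-07, edgeR). Its neighbour Fmod, or fibromodulin, was higher by 1.45 ± 0.22 (adjusted p = 0.000225, edgeR). Bgn, the biglycan gene, was at 17.4, 17.02 and 15.3 CPM and at 41.5, 38.1 and 39.1 CPM, again apart, with a log2 fold change of 1.26 ± 0.09 (adjusted p = 9.84e-07, edgeR).

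SLRP genes also lie side by side on chromosome 13, where not all of them passed the test. Ogn, the osteoglycin or mimecan gene (ENSMUSG00000021390, chr13:49608046-49624501), was at 2.93, 3.46 and 2.77 CPM in saline mice and 15.1, 15.3 and 14.5 CPM in PD mice. The PD mice were nearly equal and all higher, with a log2 fold change of 2.29 ± 0.14 (adjusted p = 2.78e-07, edgeR). Aspn, the asporin gene, which inhibits TGF-β (ENSMUSG00000021388, chr13:49544443-49567565), was at 18.6, 23.6 and 21.99 CPM and at 21.8, 27.5 and 26.3 CPM. PD mouse 1 lay within the saline range, and the log2 fold change was 0.23 ± 0.12 (adjusted p = 0.121, edgeR). Without PD mouse 1 it was 0.33 and passed (adjusted p = 0.0470, edgeR), and with scaling to endothelial markers it was -0.76 and Aspn was lower. Of the genes around them, Ecm2 was higher by 1.17 ± 0.16 (adjusted p = 0.000118, edgeR), and Omd, at 0.166 to 0.323 CPM in saline mice and 0.461 to 0.725 CPM in PD mice, did not pass at 1.16 ± 0.49 (adjusted p = 0.0598, edgeR). The order along the chromosome was Ecm2, Aspn, Omd and Ogn, all on the same strand.

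The 250 bases before the RefSeq starts of Ogn and Aspn (GRCm38.p6, plus strand, chr13:49607765-49608014 and chr13:49544193-49544442) are shown because these genes had the largest and the smallest change of the cluster. Capitals mark the letters TATAAA and its reverse complement TTTATA.
Ogn: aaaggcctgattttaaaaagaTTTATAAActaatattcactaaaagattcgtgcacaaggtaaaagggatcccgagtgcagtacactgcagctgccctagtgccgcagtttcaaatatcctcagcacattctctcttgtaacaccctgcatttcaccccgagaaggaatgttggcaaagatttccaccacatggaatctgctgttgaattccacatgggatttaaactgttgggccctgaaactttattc
Aspn: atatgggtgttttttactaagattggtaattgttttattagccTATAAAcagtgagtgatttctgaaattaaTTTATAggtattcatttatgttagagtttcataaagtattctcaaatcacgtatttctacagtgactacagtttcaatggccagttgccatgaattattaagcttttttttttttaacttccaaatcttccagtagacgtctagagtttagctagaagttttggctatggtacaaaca
In both, the letters TATAAA lay far from the start, 227 bases before it in Ogn, where the forward and reverse matches overlap, and 207 bases before it in Aspn. The windows were 42% and 30.0% GC.

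Hspg2 and Agrn encode heparan sulphate proteoglycans of the basement membrane, and both were higher. Hspg2, the perlecan gene, was at 2.21 to 4.10 CPM in saline mice and 5.57 to 7.76 CPM in PD mice, with a log2 fold change of 1.03 ± 0.23 (adjusted p = 0.00299, edgeR). Agrn, the agrin gene, was at 2.21 to 3.52 CPM and at 7.43 to 8.98 CPM, a log2 fold change of 1.42 ± 0.20 (adjusted p = 0.000138, edgeR). Vcan, the versican gene of provisional matrix, had the lowest level of the proteoglycans in saline mice and the largest standard error of its log2 fold change among them. It was at 0.430, 0.692 and 1.33 CPM in saline mice and 3.64, 3.10 and 1.495 CPM in PD mice. PD mouse 3 was just above saline mouse 3, and the log2 fold change was 1.76 ± 0.44 (adjusted p = 0.00556, edgeR). None of these genes passed when scaled to endothelial markers.

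Elastic fibre transcripts were higher for 10 of the 11 tested genes, with a median log2 fold change of 1.70. All 11 had every PD mouse above every saline mouse, against 34.0% of all genes. Scaled to endothelial markers, 8 were higher and Fbln5 was lower, and scaled to fibroblast markers 1 (Loxl1) was higher and 8 lower. Fbln5 encodes fibulin-5, an elastogenic protein of vessel walls (ENSMUSG00000021186, chr12:101746565-101819055), and had the highest level of the group. It was at 167, 186 and 179 CPM in saline mice and 269, 278 and 304 CPM in PD mice. The groups were apart by a log2 fold change of 0.68 ± 0.07 (adjusted p = 1.26e-05, edgeR), the smallest of the called elastic fibre genes, which turned to -0.31 with endothelial scaling.

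Fbln2, a fibulin of elastic fibres and basement membranes, was at 58.9, 41.0 and 67.6 CPM and at 170, 141 and 131 CPM. Saline mouse 2 was lowest and PD mouse 1 highest, and the log2 fold change was 1.398 ± 0.16 (adjusted p = 2.69e-05, edgeR). Efemp1, the fibulin-3 gene, was at 10.6, 13.5 and 11.9 CPM and at 58.9, 62.9 and 69.7 CPM, well apart, with a log2 fold change of 2.41 ± 0.11 (adjusted p = 2.05e-08, edgeR).

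Fbln1, the fibulin-1 gene, and Mfap5 had 2 of the 3 largest changes of the group. Fbln1 was at 1.84, 2.03 and 1.74 CPM in saline mice and 11.6, 10.4 and 11.8 CPM in PD mice, with no overlap and a log2 fold change of 2.59 ± 0.16 (adjusted p = 2.75e-07, edgeR). Mfap5, which encodes the microfibril-associated protein MAGP-2, was at 4.10, 4.93 and 3.81 CPM and at 23.2, 24.03 and 25.6 CPM. Both groups were tight, and the log2 fold change was 2.51 ± 0.13 (adjusted p = 6.32e-08, edgeR).

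The lysyl oxidases cross-link elastin and collagen, and 2 of the 3 listed were higher. Loxl1, the family member most closely tied to elastin renewal (ENSMUSG00000032334, chr9:58287738-58313186), was at 1.17, 0.738 and 1.20 CPM in saline mice and 15.5, 13.1 and 13.8 CPM in PD mice. Every PD mouse was more than 10 CPM above the saline mice, at 13.4-fold, with a log2 fold change of 3.75 ± 0.20 (adjusted p = 6.20e-08, edgeR). Lox was at 2.15, 4.24 and 3.48 CPM and at 10.7, 10.1 and 11.2 CPM, a log2 fold change of 1.70 ± 0.22 (adjusted p = 6.53e-05, edgeR). Loxl2 was at 2.97, 2.31 and 1.82 CPM and at 3.94, 3.44 and 3.17 CPM. Its groups did not overlap, but the log2 fold change of 0.57 ± 0.24 did not pass (adjusted p = 0.0591, edgeR). Without saline mouse 1 it was 0.78 and passed (adjusted p = 0.0291, edgeR), and with endothelial scaling it was -0.42.

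The core proteins of the fibre were higher as well. Eln, the elastin gene, was at 11.1, 5.81 and 11.7 CPM in saline mice and 26.7, 19.5 and 16.1 CPM in PD mice, a log2 fold change of 1.12 ± 0.25 (adjusted p = 0.00272, edgeR). Fbn1, the fibrillin-1 gene, was at 6.50 to 8.71 CPM and at 21.9 to 25.8 CPM, a log2 fold change of 1.64 ± 0.13 (adjusted p = 2.20e-06, edgeR). Saline mouse 2 had the lowest level of both. Fbn2, the fibrillin of developing tissue, was not tested, with 16, 0 and 6 counts in saline mice and 5, 6 and 0 counts in PD mice. Efemp2, the fibulin-4 gene, was higher by 1.82 ± 0.17 (adjusted p = 8.14e-06, edgeR), though it shares 173 exon bases with the antisense gene Mus81, which had 5954 counts against 844 for Efemp2.

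All 11 genes of fibronectin and the matricellular proteins were higher, with a median log2 fold change of 1.43. At least 2-fold higher were 7 of them, against 15.4% of all tested genes. Scaled to endothelial markers, 6 were higher (Fn1, Spp1, Tnxb, Thbs1, Ccn2 and Sparcl1) and Ccn1 and Postn were lower, and scaled to fibroblast markers 1 (Fn1) was higher and 8 lower. Fn1, fibronectin (ENSMUSG00000026193, chr1:71585520-71653200), was at 17.1, 12.5 and 18.2 CPM in the saline mice and at 191, 151 and 125 CPM in the PD mice. PD mouse 1 was highest, and the groups were far apart at 9.73-fold (log2 fold change 3.28 ± 0.17, adjusted p = 5.07e-08, edgeR). Tnxb, the tenascin-X gene of loose connective tissue, was at 0.898, 0.507 and 0.870 CPM and at 6.62, 6.04 and 5.12 CPM, apart by a log2 fold change of 2.95 ± 0.26 (adjusted p = 3.92e-06, edgeR).

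Spp1 encodes osteopontin, a secreted ligand of integrins and CD44 that macrophages and epithelia make (ENSMUSG00000029304, chr5:104435118-104441050). It was at 9.92, 10.4 and 8.24 CPM in saline mice and 78.0, 85.6 and 94.3 CPM in PD mice, with a wide gap between the groups and a log2 fold change of 3.18 ± 0.11 (adjusted p = 2.59e-09, edgeR). Ccn1, or Cyr61, a growth factor-inducible gene of vessels (ENSMUSG00000028195, chr3:145646976-145649981), had the highest level of the group at 235, 240 and 228 CPM in saline mice and 369, 400 and 409 CPM in PD mice. The PD mice were all above, but by a log2 fold change of only 0.75 ± 0.06 (adjusted p = 2.58e-06, edgeR), which was -0.24 with endothelial scaling.

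The 250 bases before the RefSeq starts of Ccn1 (GRCm38.p6, minus strand, chr3:145649986-145650235) and Spp1 (plus strand, chr5:104434861-104435110) are shown because Ccn1 had the highest saline level of the list and Spp1 one of its largest changes, with TATAAA in capitals.
Ccn1: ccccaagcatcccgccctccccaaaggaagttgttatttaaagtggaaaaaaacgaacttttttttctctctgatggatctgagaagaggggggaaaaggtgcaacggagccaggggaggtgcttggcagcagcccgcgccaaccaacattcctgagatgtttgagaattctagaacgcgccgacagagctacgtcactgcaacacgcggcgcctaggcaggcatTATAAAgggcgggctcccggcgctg
Spp1: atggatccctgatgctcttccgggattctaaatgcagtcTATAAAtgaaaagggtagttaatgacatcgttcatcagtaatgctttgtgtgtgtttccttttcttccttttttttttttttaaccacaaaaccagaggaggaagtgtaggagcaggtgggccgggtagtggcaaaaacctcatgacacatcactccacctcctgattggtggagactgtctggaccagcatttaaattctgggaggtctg
The match lay 25 bases before the start in Ccn1 and 211 bases before it in Spp1, for which RefSeq lists 2 windows and the upstream one is shown. Of the 44 genes, 27 had such a window, and 7 of these (25.9%) held TATAAA on either strand, against 14.3% of 27025 genes. The letters GGGCGG were found in 15 windows (55.6% against 35.4%), CCAAT in 8 (29.6% against 37.5%), CATTCC in 4 (14.8% against 14.4%) and TGANTCA in 2 (7.41% against 7.82%), on either strand. These shares describe letters only and were not tested.

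The thrombospondins, the SPARC family and Ccn2 were also higher. Thbs1, an inhibitor of angiogenesis and activator of TGF-β, was at 22.9, 20.6 and 28.2 CPM in saline mice and 143, 131 and 130 CPM in PD mice, a log2 fold change of 2.49 ± 0.11 (adjusted p = 1.37e-08, edgeR). Thbs2, its relative in fibroblasts, was at 2.46, 3.18 and 3.06 CPM and at 5.96, 6.71 and 6.84 CPM, a log2 fold change of 1.16 ± 0.18 (adjusted p = 0.000276, edgeR). The groups did not overlap for either gene. Ccn2, or CTGF, a TGF-β and YAP target in fibrosis, was at 11.6, 12.2 and 12.4 CPM and at 39.7, 39.1 and 35.1 CPM, a log2 fold change of 1.65 ± 0.10 (adjusted p = 1.46e-07, edgeR).

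Sparc, a collagen-binding matricellular protein, was at 146, 142 and 137 CPM in saline mice and 249, 244 and 244 CPM in PD mice. The PD mice were nearly equal, and the log2 fold change was 0.79 ± 0.06 (adjusted p = 9.16e-07, edgeR), or -0.20 with endothelial scaling. Sparcl1, its relative in vessels, was at 97.9, 113 and 103 CPM and at 269, 286 and 287 CPM, a log2 fold change of 1.43 ± 0.07 (adjusted p = 3.18e-08, edgeR).

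Tnc and Postn, the tenascin-C and periostin genes, are known markers of matrix remodelling and had small changes. Tnc was at 4.47 to 7.42 CPM in saline mice and 9.77 to 11.5 CPM in PD mice, a log2 fold change of 0.86 ± 0.18 (adjusted p = 0.00224, edgeR), or -0.13 with endothelial scaling. Postn (ENSMUSG00000027750, chr3:54361109-54391037) was at 15.5, 13.7 and 13.9 CPM and at 20.1, 18.5 and 16.3 CPM. PD mouse 3 was just above saline mouse 1, and the log2 fold change of 0.35 ± 0.12 (adjusted p = 0.0245, edgeR) was the smallest that passed. It no longer passed without PD mouse 1 (0.28, adjusted p = 0.0989, edgeR), PD mouse 2 (0.35, adjusted p = 0.0677, edgeR), saline mouse 2 (0.32, adjusted p = 0.0598, edgeR) or saline mouse 3 (0.32, adjusted p = 0.0645, edgeR), and with endothelial scaling it was -0.64.

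**Figure D4:**
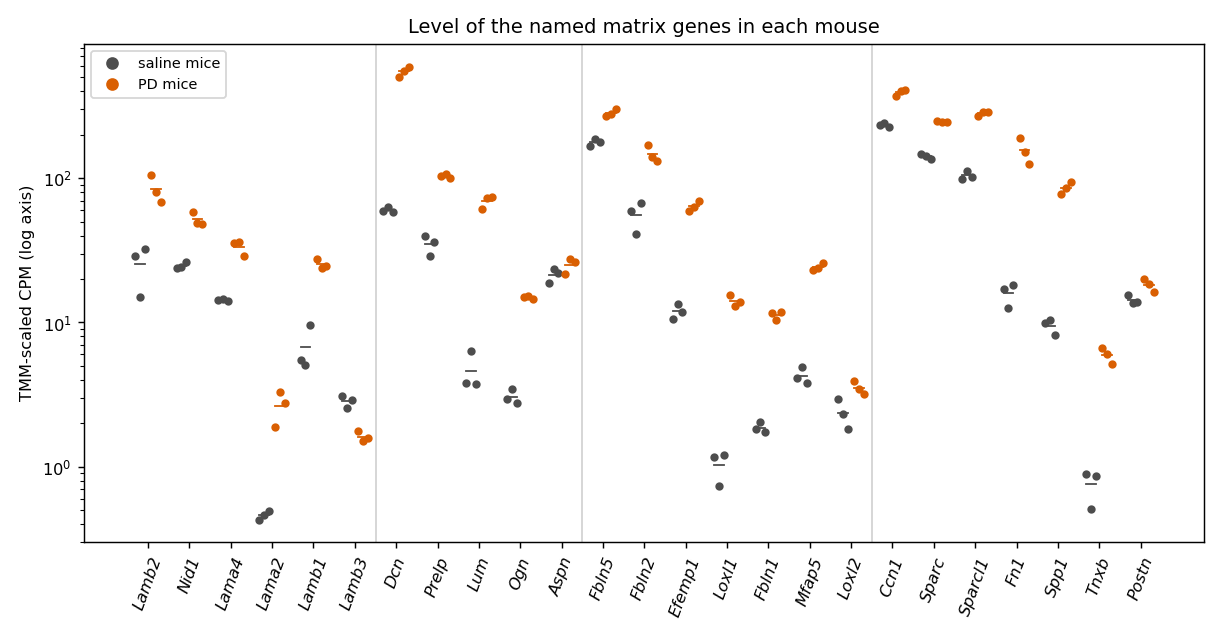
TMM-scaled CPM (vertical axis, log scale) of the named matrix genes in each of the 3 saline mice and 3 PD mice, with short lines for the group means and grey lines between the role groups. Only Aspn has overlapping points, Lamb3 has its PD mice below the saline mice, and the gap between groups is widest for Lum at 15.1-fold, while the direction of Aspn, Fbln5, Loxl2, Ccn1, Sparc and Postn turns with endothelial scaling and that of most genes with fibroblast scaling.

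Related genes were compared as ratios of FPKM within each mouse, where the scale of the library drops out. A ratio was computed for 8 pairs, and the difference between groups was tested by a two-sided exact permutation test, in which 3 mice against 3 allow no p below 0.1. The ratio did not overlap between the groups for 5 pairs. Among all tested genes, 34.0% had the PD mice above and 31.6% below the saline mice without overlap. How often ratios of other gene pairs separate the groups was not tested. The log2 ratio of Lox to Loxl1 was 0.38, 2.04 and 1.05 in saline mice and -1.06, -0.83 and -0.76 in PD mice. Lox thus exceeded Loxl1 in every saline mouse and lay below it in every PD mouse, a difference of -2.04 (exact p = 0.1, 0.16 after Benjamini-Hochberg adjustment over the 8 pairs). The log2 ratio of Dcn to Bgn, the closest SLRP relatives, was 2.23, 2.34 and 2.39 in saline mice and 4.07, 4.32 and 4.38 in PD mice, a difference of 1.93.

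The differences for the other three pairs with no overlap were 1.34 for Thbs1 over Thbs2, -0.60 for Sparc over Sparcl1 and -0.91 for Ccn1 over Ccn2, with the same p values in the exact permutation test. The ratio of the nidogens, Nid1 over Nid2, fell by 0.55 but overlapped (exact p = 0.2, adjusted 0.267). The ratios of the laminin chains differed little, by 0.09 for Lama4 over Lama5 and 0.05 for Lamb1 over Lamb2 (exact p = 1 for both). Their SDs were 0.62 and 0.43 in saline mice and 0.52 and 0.28 in PD mice, so that a change of about that size would not have been seen. Fbn1 over Fbn2 was not computed, since Fbn2 was listed at 0 in some mice.

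**Figure D5:**
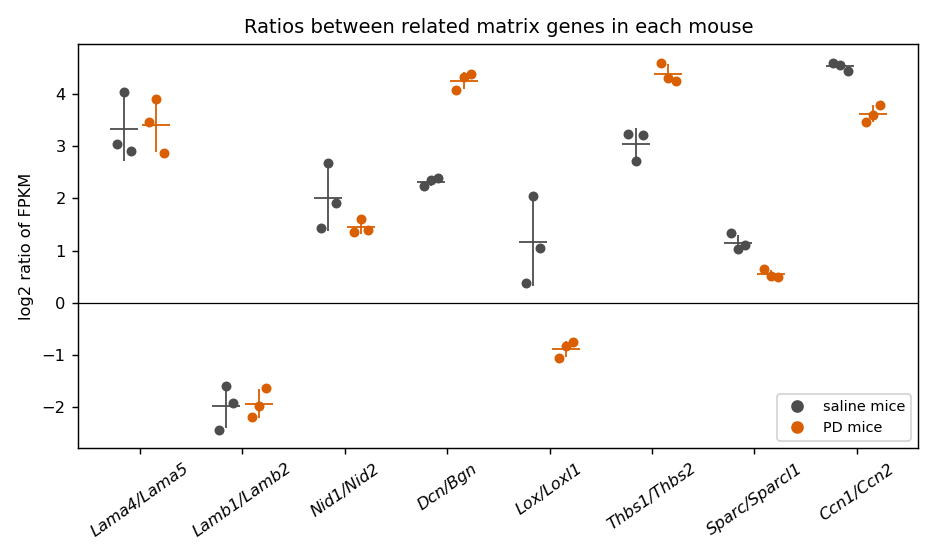
Log2 ratio of the FPKM of related matrix genes (vertical axis) in each of the 3 saline and 3 PD mice, with the mean and SD of each group. The groups are apart for Dcn/Bgn, Lox/Loxl1, Thbs1/Thbs2, Sparc/Sparcl1 and Ccn1/Ccn2, and Lox/Loxl1 goes from above 0 in saline mice to below 0 in PD mice.

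Matrix genes outside the list were also mostly higher in PD mice. Of 66 further glycoprotein, proteoglycan and elastic fibre genes, 52 were tested, of which 40 were higher and 0 lower in PD mice, against 31.1% and 27.8% of all genes, with a median log2 fold change of 1.52. Scaled to endothelial markers 26 were higher and 3 lower, against 8.15% and 72.5% of all genes, and scaled to fibroblast markers 2 were higher and 39 lower, against 1.06% and 95.8%. Mfap4 and Dpt belong to these further genes and also to the fibroblast markers that set the last scale. The largest called changes were those of Mfap4, a microfibril protein also used as a fibroblast marker here, Emilin2, an elastic fibre glycoprotein, and Smoc2, a SPARC relative. Mfap4 was at 0.0391, 0.277 and 0.124 CPM in saline mice and 4.97, 4.78 and 6.57 CPM in PD mice, a log2 fold change of 5.22 ± 0.41 (adjusted p = 1.59e-06, edgeR). Emilin2 was at 9.82 to 15.8 CPM and 135 to 141 CPM, a log2 fold change of 3.43 ± 0.14 (adjusted p = 6.13e-09, edgeR). Smoc2, which neighbours Thbs2 on chromosome 17 at a distance of 260709 bases, was at 1.34 to 2.03 CPM and at 15.1 to 17.1 CPM, a log2 fold change of 3.24 ± 0.17 (adjusted p = 6.64e-08, edgeR). The smallest called changes were those of Creld1 at 0.51, Npnt at 0.62 and Spon2 at 0.79, which turned to -0.48, -0.37 and -0.19 with endothelial scaling, where Creld1 was called lower. Creld1 no longer passed without PD mouse 1 (0.38), PD mouse 2 (0.51) or saline mouse 2 (0.37), with adjusted p in edgeR of 0.0707 to 0.126. Npnt passed without PD mouse 2 (0.79, adjusted p = 0.0194, edgeR), but it was at 0.42 without PD mouse 1 and at 0.60 to 0.66 without PD mouse 3 or any of the saline mice, and it passed in none of these (adjusted p from 0.0598 to 0.186, edgeR).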

How the data were processed

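Poly(A)-selected RNA of peritoneal ECs was sequenced from 3 saline and 3 PD mice, grouped as the labels give treatment, and each mouse's library held 21973426 to 26374292 counts. The authors deposited 1 table of 22183 genes with raw read counts per mouse, and FPKM values per mouse that the authors normalized to transcript length and library size. Its group means, the log2 fold change, p-value and FDR columns of the authors' own comparison were deposited too and were not used. The submitters' processing notes name fastp 0.18.0, Bowtie2 2.2.8, HISAT2, StringTie and RSEM. The genome build, the annotation and the strand used in counting are not given in the sources used here. Positions are on GRCm38 with GENCODE M21, where 22128 identifiers matched, and promoter windows are from RefSeq. No sample column was left unmatched.

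Counts were filtered with edgeR's filterByExpr (minimum count 10, minimum total count 15), which left 14005 genes, scaled by TMM and tested with edgeR 4.0.16 by its quasi-likelihood test, two-sided, without covariate, with Benjamini-Hochberg adjustment over all tested genes and a threshold of 0.05 (R 4.3.3). The study's methods name limma, which was used here as an alternative (limma-voom, limma 3.58.1), as were DESeq2 1.42.0, its size factors, no filter, a fold change of at least 2, scaling to endothelial or fibroblast markers, the replicate number as a block, and leaving out each mouse. Standard errors come from the quasi-likelihood F statistic. Ratios of FPKM were tested by exact permutation with Python 3.11.15 and scipy 1.17.1. Counts were simulated with known changes of at least 2-fold in 200 genes and with the same spread between mice set for every gene. Of 13975 genes run, the test recovered 195 of 199 changed genes and called 14 unchanged ones. In the deposited counts 8246 of 14005 genes were called. Recovery with that many changes, with smaller changes or with a spread that differs between genes was not tested.

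The genes, marker lists and tests were chosen with earlier results of these data known. Every gene of the list is accounted for. Values per mouse are given, in each role group, for the 3 highest by mean FPKM, the 3 largest changes and the smallest. They are also given for genes that were lower or not tested, and for gene pairs whose ratio did not overlap between the groups. The other matrix genes named are the 3 largest and the 3 smallest called changes and family members next to a listed gene. The promoter windows and motifs, and the further genes with values per mouse, were chosen after values were seen. Same-numbered mice did not deviate together, so numbers were not taken as pairs. Each library is from its own mouse, and no library was found deposited more than once.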

Additional observations from a re-analysis of the deposited data

How the results depend on the processing

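Every count of called genes stayed within 1.5 times its value, and the calls of all 42 tested matrix genes were the same, with DESeq2, limma-voom, DESeq2's size factors or no filter. With the replicate number as a block, 39 of them were higher and 1 lower, and no call changed. Same-numbered mice correlated at 0.105, 0.041 and -0.173 in their deviations from the group means. No pairing by number was seen, though with 3 mice per group this check is weak. Leaving out each mouse left 38 to 40 higher and 1 lower, with calls lost for Postn and gained for Aspn and Loxl2 as given above. Requiring at least a 2-fold change left 2410 of all genes, 7 fibronectin and matricellular genes higher and 0 matrix genes lower. Scaling to endothelial markers left 23 matrix genes higher and 5 lower, with 4 laminins and nidogens, 5 proteoglycans, 6 fibronectin and matricellular genes and 26 other matrix genes higher, and turned Aspn to -0.76, Fbln5 to -0.31, Loxl2 to -0.42, Sparc to -0.20, Tnc to -0.13, Postn to -0.64 and Ccn1 to -0.24. Scaling to fibroblast markers called 13565 genes, with 4 matrix genes higher and 33 lower and with 0, 2, 1 and 1 higher among the laminins and nidogens, proteoglycans, elastic fibre genes, and fibronectin and matricellular genes, and 2 among the other matrix genes. It turned 35 genes: Lama2 to -0.34, Lama3 -1.61, Lama4 -1.63, Lama5 -1.77, Lamb1 -0.93, Lamb2 -1.11, Lamc1 -1.68, Nid1 -1.79, Nid2 -1.31, Hspg2 -1.82, Agrn -1.43, Bgn -1.62, Fmod -1.40, Ogn -0.58, Prelp -1.29, Aspn -2.63, Vcan -1.08, Fbn1 -1.22, Eln -1.73, Fbln1 -0.27, Fbln2 -1.45, Fbln5 -2.19, Efemp1 -0.46, Efemp2 -1.05, Mfap5 -0.37, Lox -1.17, Loxl2 -2.30, Sparc -2.08, Sparcl1 -1.44, Thbs1 -0.36, Thbs2 -1.70, Tnc -2.01, Postn -2.52, Ccn1 -2.12 and Ccn2 -1.21. Both scalings move the median of all genes below 0 because the markers were themselves higher in PD mice under TMM. Their median log2 fold changes were 0.96 for the endothelial and 2.56 for the fibroblast markers. The fibroblast markers also include collagens and other matrix genes, as given above. How far each scaling holds was not tested. Among the ratios, Lama4 over Lama5 ran from -0.16 to 0.44 and Lamb1 over Lamb2 from -0.18 to 0.24 with each mouse left out, and the latter was -0.023 with a pseudocount of 0.1 FPKM. Genes under about 3 CPM, such as Lama2, Vcan and Tnxb in saline mice, rest on few reads, and 3 mice per group limit the precision of all values.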

Other observations

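Receptors for these matrix proteins were described as well. Of 17 integrin and other receptor genes tested, 14 were higher in PD mice, 1 was lower and 2 did not pass, against 31.1% higher and 27.8% lower among all genes, with a median log2 fold change of 0.73. With scaling to endothelial markers 5 were higher and 8 lower, against 8.15% and 72.5% of all genes, and with scaling to fibroblast markers 0 were higher and 17 lower, against 1.06% and 95.8%, which is near the share of all genes. The largest change was that of Itgb5, the β5 integrin that pairs with αv and binds vitronectin, at 16.01, 13.7 and 18.9 CPM in saline mice and 84.8, 83.5 and 78.7 CPM in PD mice, with no overlap (log2 fold change 2.34 ± 0.11, adjusted p = 2.55e-08, edgeR). The fibronectin receptor chain Itga5 was at 25.3 to 41.2 CPM and at 99.2 to 106 CPM, a log2 fold change of 1.65 ± 0.14 (adjusted p = 3.12e-06, edgeR), and the laminin receptor chain Itga6 was at 74.5 to 85.8 CPM and at 95.9 to 105 CPM, a log2 fold change of 0.35 ± 0.08 (adjusted p = 0.00227, edgeR) that turned to -0.63 with endothelial scaling, where Itga6 was called lower. Cd47, a receptor of thrombospondin-1, was lower, at 511 to 549 CPM in saline mice and 444 to 496 CPM in PD mice (log2 fold change -0.16 ± 0.06, adjusted p = 0.0464, edgeR). It no longer passed without PD mouse 1 (-0.12), PD mouse 2 (-0.16), saline mouse 1 (-0.16) or saline mouse 2 (-0.14), with adjusted p in edgeR of 0.0790 to 0.130. The list was written with results of these data known, and Itga5 and Itga6 were named after their values were seen.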
